A study of Mus musculus with 2 samples.

Results

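The genes examined here encode the proteins of elastic fibres and of the microfibrils on which these fibres are built. They are elastin (*Eln*), the fibrillins *Fbn1* and *Fbn2*, the microfibril-associated proteins *Mfap2*, *Mfap4* and *Mfap5*, and the fibulins *Fbln1*, *Fbln2*, *Fbln5* and *Efemp2*. They were chosen by gene symbol as a family of known function, at a time when earlier results of these data were known. All 10 were found among the 24346 gene symbols measured. RNA was sequenced from whole omentum, a sheet of abdominal fat that carries lymphoid clusters called milky spots. There was 1 library for the WT genotype and 1 for the *Postn*-DTR genotype, both collected 5 days after diphtheria toxin (DT). *Postn*-DTR mice are heterozygotes in which a toxin receptor was placed in the first coding exon of *Postn* on a C57BL/6 background, and DT then kills the cells in which the *Postn* promoter is active, among them the *Aldh1a2*+ fibroblastic reticular cells (FRCs) of milky spots. One *Postn* copy is interrupted in these mice, and mesenchymal cells outside the omentum also use this promoter. The control mice carried no receptor and received DT as well. The sources used here do not give the age of the mice or whether a library came from a pool of animals.

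An elastic fibre has a core of crosslinked elastin that forms on a scaffold of fibrillin microfibrils. MFAP2 and MFAP5 are small glycoproteins bound to fibrillin, and MFAP4 binds both tropoelastin and fibrillin. Fibulin-5, encoded by *Fbln5*, and fibulin-4, encoded by *Efemp2*, help to deposit tropoelastin on microfibrils and to bring lysyl oxidase to it. Fibulin-1 and fibulin-2 are found in elastic fibres and in basement membranes. Fibroblasts, smooth muscle cells and mesothelial cells are known sources of these proteins, and fibrillin microfibrils also hold latent TGF-beta in the matrix.

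Levels are given as FPKM, a fragment count corrected for transcript length and library depth, which allows genes to be compared. Differences between the libraries are given as the ratio of FPKM, *Postn*-DTR over WT, and as the difference of log2(FPKM + 1), which is smaller in size than the log2 ratio for genes of low FPKM. With 1 library per genotype there is no replicate spread, no test was possible, and no difference below has a replicate check. Where a pair of FPKM is given for a gene, the first is WT and the second *Postn*-DTR. Differences of 2-fold or more on the log2(FPKM + 1) scale were counted, among the 13127 genes whose mean FPKM was 1 or more. In whole tissue, fewer cells of a type and less RNA per cell cannot be told apart.

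The elastic fibre genes differed in opposite directions between the libraries, and none by 2-fold. The 3 microfibril-associated protein genes were all higher in *Postn*-DTR, by 1.40-fold to 1.94-fold. *Fbn1*, which encodes the main scaffold protein of adult microfibrils, and *Fbln1* were at 0.647 and 0.698 times their WT levels. *Eln* was at 1.25 times its WT level, and *Fbln5* and *Efemp2* were at 0.999 and 0.941 times theirs. Of the 9 members that passed the expression minimum, 0 were at least 2-fold lower, where 3.12% of all compared genes were, and 0 were at least 2-fold higher, where 3.88% were. At 1.5-fold, 1 member was lower (*Fbn1*), against 8.84% of all genes, and 2 were higher (*Mfap2* and *Mfap4*), against 9.86%. The median difference of the 9 members was -0.0019 on the log2 scale, beside 0.02 for all genes compared.

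**Figure D1:**
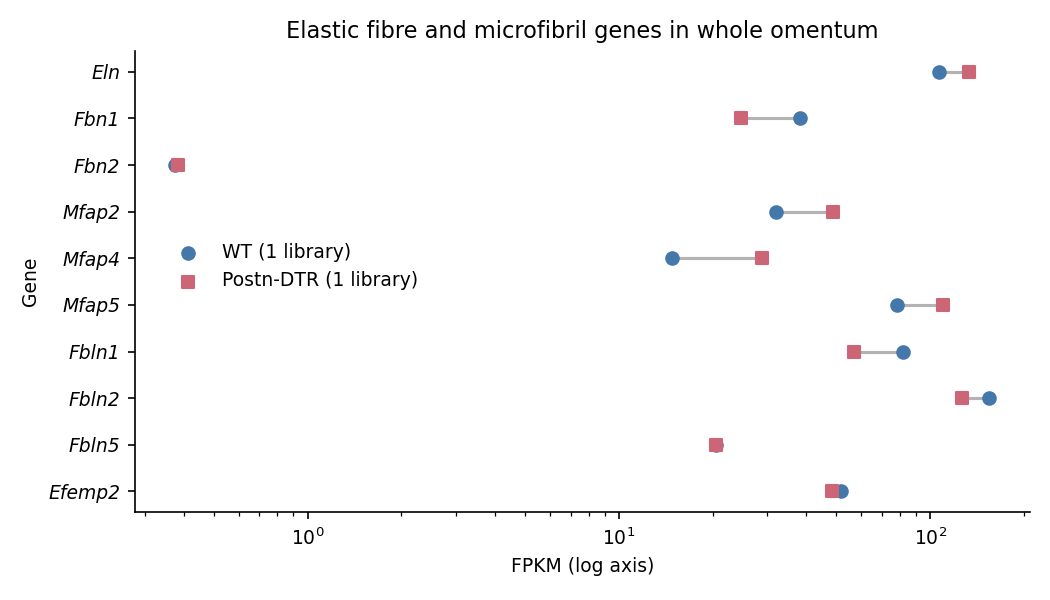
FPKM of each of the 10 genes (vertical) on a log axis (horizontal), with a circle for the WT library and a square for the Postn-DTR library. The 3 Mfap genes and Eln lie to the right of their WT value in Postn-DTR, Fbn1, Fbln1 and Fbln2 lie to the left, and Fbn2 lies far below the others at 0.376 and 0.384.

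*Eln* (chromosome 5, 134702593 to 134747323 on the minus strand, GRCm38) encodes tropoelastin, the monomer of the elastic core. It was abundant in the omentum, with FPKM values of 107 and 134, a difference of 0.32. It was the second most abundant member in WT, after *Fbln2*, and the most abundant in *Postn*-DTR. Its direction depended on the scaling of the libraries. With 8 pancreatic acinar genes left out and the totals made equal, its difference became -0.0070, while the median of all genes moved by -0.29. Measured from that median, *Eln* was higher by 0.30 as deposited and by 0.27 after this rescaling. Only these 8 genes were removed, so any other acinar transcripts stayed in the totals.

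The fibrillins form the microfibril itself. *Fbn1* (chromosome 2, 125300594 to 125507993 on the minus strand) had FPKM values of 38.1 and 24.6, a difference of -0.61, and 8.37% of all compared genes had a more negative one. It was lower under each of the 3 other scalings of the libraries, which are the alternatives that could turn a direction, with differences from -0.93 to -0.63. *Fbn2*, a fibrillin best known from development, was the least abundant member, with FPKM values of 0.376 and 0.384. It was the 1 member left out by the expression minimum. Its values correspond to about 94.8 and 99.9 estimated fragments, and the 95% interval of its ratio for counting error alone was 0.762 to 1.36, so that a difference smaller than this was not detectable at this depth. *Fbn1* was 101 times as abundant as *Fbn2* in WT and 64.2 times in *Postn*-DTR.

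The microfibril-associated protein genes were all at higher FPKM in *Postn*-DTR. *Mfap4* (chromosome 11, 61485431 to 61488900 on the plus strand) had the largest difference of the family, with FPKM values of 14.9 and 28.9. The ratio was 1.94 and the difference 0.91, with 4.62% of compared genes more positive. *Mfap2* (chromosome 4, 141010418 to 141015984 on the plus strand) was at 32.0 and 48.6, a ratio of 1.52 and a difference of 0.59. *Mfap5* (chromosome 6, 122505845 to 122529290 on the plus strand) was at 78.4 and 109.7, a ratio of 1.40 and a difference of 0.48. All 3 were higher under each of the 3 other scalings, with the smallest values after rescaling to equal totals, where *Mfap4* differed by 0.60, *Mfap2* by 0.27 and *Mfap5* by 0.15. The summed FPKM of the 3 genes was 125 and 187.

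The fibulins were the most abundant class, with summed FPKM values of 308 and 252. *Fbln1* (chromosome 15, 85205949 to 85286535 on the plus strand) was at 81.7 and 57.0, a difference of -0.51, and 10.9% of genes had a more negative one. *Fbln2* (chromosome 6, 91212455 to 91272540 on the plus strand) was at 155 and 127, a ratio of 0.818 and a difference of -0.29. Both were lower under each of the 3 other scalings, with differences of -0.84 to -0.53 for *Fbln1* and -0.62 to -0.31 for *Fbln2*. The fibulins that take part in elastic fibre assembly differed little. *Fbln5* (chromosome 12, 101746565 to 101819055 on the minus strand) had FPKM values of 20.5 and 20.4, with a counting interval for the ratio of 0.947 to 1.05. *Efemp2* (chromosome 19, 5473954 to 5482517 on the plus strand) was at 51.5 and 48.5, a ratio of 0.941 with an interval of 0.893 to 0.991. Rescaling to equal totals gave differences of -0.32 for *Fbln5* and -0.41 for *Efemp2*, beside a median of -0.27 for all genes under that setting.

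**Figure D2:**
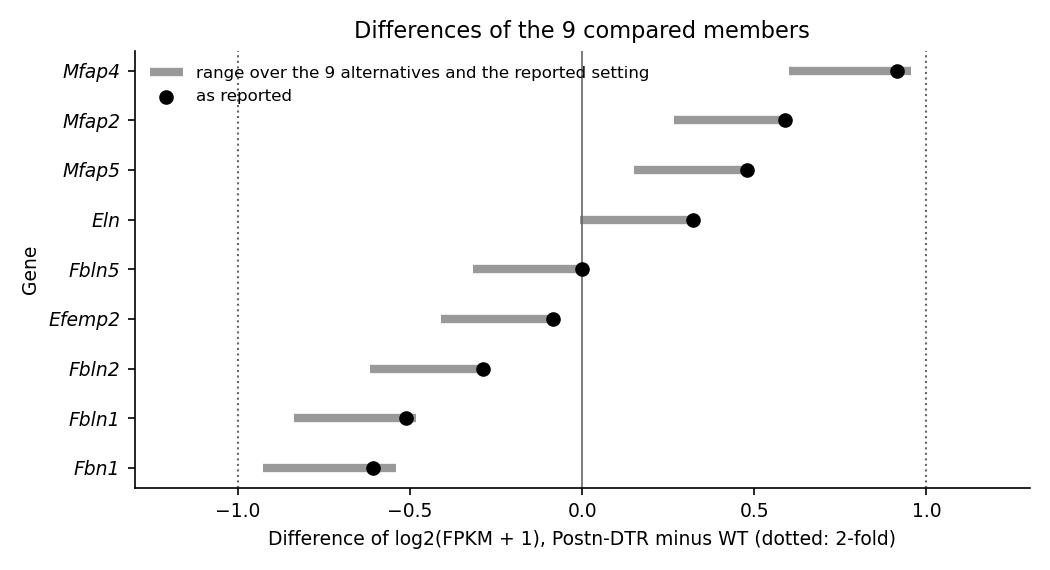
Difference of log2(FPKM + 1), Postn-DTR minus WT (horizontal), for the 9 compared genes (vertical), where the black point is the value as reported, the grey bar spans the lowest to the highest value over the reported setting and 9 alternatives, and dotted lines mark 2-fold. The bars of Mfap2, Mfap4 and Mfap5 lie above 0 and those of Fbn1, Fbln1 and Fbln2 below 0, and the bar of Eln reaches from -0.0070 to 0.32.

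Estimated fragment numbers were high for the other members, from 523 for *Mfap4* in WT to 16493 for *Fbln2* in WT. The 95% counting interval of the ratio was 1.75 to 2.17 for *Mfap4*, 1.37 to 1.68 for *Mfap2*, 1.33 to 1.47 for *Mfap5*, 1.22 to 1.29 for *Eln*, 0.628 to 0.667 for *Fbn1*, 0.672 to 0.724 for *Fbln1* and 0.800 to 0.837 for *Fbln2*. For *Fbln5* the interval given above included 1, and for *Efemp2* its upper bound lay close to 1. These intervals are exact Clopper-Pearson intervals on estimated fragments, they cover counting error only, and they do not contain the variation between mice.

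Because a change of scale moves all genes of a library alike, the make-up of the family was also read within each library. The summed FPKM of the 10 genes was nearly equal, at 579 and 599, but its parts differed. The microfibril-associated proteins took 21.6% of the sum in WT and 31.3% in *Postn*-DTR. *Eln* took 18.5% and 22.4%. The fibulins took 53.3% and 42.2%, and the fibrillins 6.64% and 4.18%. The order of the levels differed accordingly. In WT it was *Fbln2*, *Eln*, *Fbln1*, *Mfap5*, *Efemp2*, *Fbn1*, *Mfap2*, *Fbln5*, *Mfap4* and *Fbn2*. In *Postn*-DTR it was *Eln*, *Fbln2*, *Mfap5*, *Fbln1*, *Mfap2*, *Efemp2*, *Mfap4*, *Fbn1*, *Fbln5* and *Fbn2*. With 1 library each, no spread can say which neighbours in these orders differ.

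**Figure D3:**
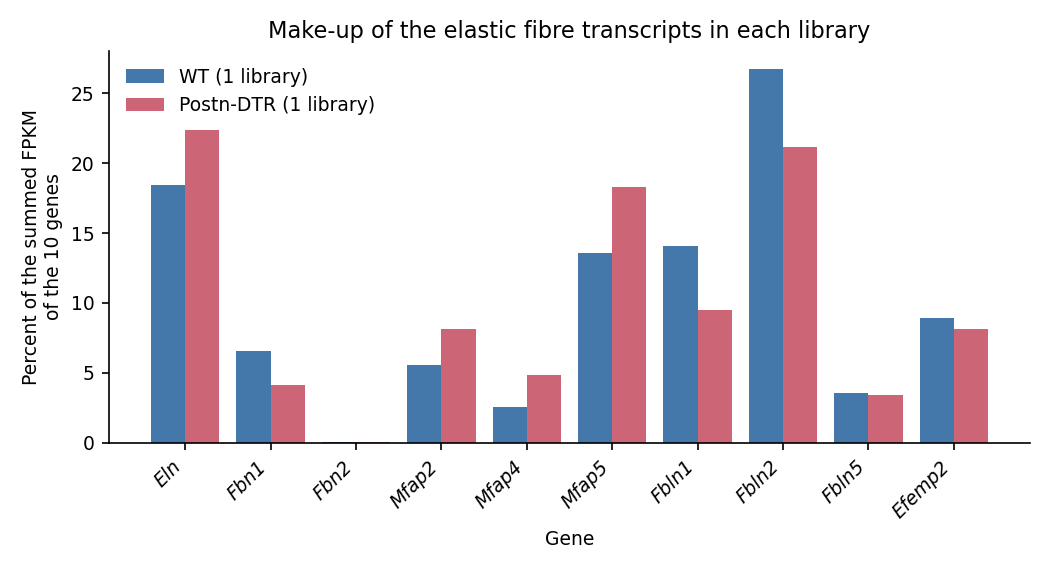
Percent of the summed FPKM of the 10 genes (vertical, from 0) taken by each gene (horizontal) in the WT library (blue) and the Postn-DTR library (red). The bars of Eln and the 3 Mfap genes are taller in Postn-DTR, and those of Fbn1, Fbln1 and Fbln2 are shorter.

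The transcripts of proteins that bind each other thus stood in different proportions in the libraries. For each unit of *Fbn1* FPKM there were 0.841 of *Mfap2* in WT and 1.98 in *Postn*-DTR. The ratio of *Mfap5* to *Fbn1* was 2.06 and 4.46, that of *Mfap4* to *Fbn1* 0.390 and 1.17, and that of *Eln* to *Fbn1* 2.81 and 5.44. *Mfap4*, which was less abundant than *Fbn1* in WT, was more abundant than it in *Postn*-DTR. By contrast, the ratio of *Mfap5* to *Mfap2* was 2.45 and 2.26, and that of *Fbln1* to *Fbn1* was 2.15 and 2.31. These ratios do not depend on the scaling of the libraries.

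*Mfap5* has a further tie to the depleted cells, since the study named it, with *Clec3b* and *Gsn*, as a gene highly expressed in the *Ccl11*+ cluster to which it assigned the *Aldh1a2*+ FRCs. The targeted gene *Postn*, which encodes periostin, a matricellular protein, fell from 58.3 to 16.2, or 3.61-fold, and *Aldh1a2* was at 85.5 and 63.3. Of the 6 *Aldh1a2*+ FRC markers compared, these among them, 4 had differences below 0 and 2 above. The 2 above were *Ptx3*, which rose from 1.40 to 6.30, or 4.51-fold, and *Ace*, at 46.5 and 56.9. *Adm* was at 14.2 and 13.1. A further marker, *Phex* (0.340 and 0.0137), was below the expression minimum and was not compared. The ratio of *Mfap5* to *Clec3b* was 0.222 in WT and 1.08 in *Postn*-DTR, a 4.86-fold difference. *Clec3b* itself fell from 354 to 102, or 3.48-fold, while *Mfap5* was at 1.40 times its WT level. *Gsn* fell from 1566 to 605, or 2.59-fold.

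The post-transcriptional regulator best known for elastic fibre genes is the miR-29 family, whose members share 1 seed (bases 2 to 8) and are known to target elastin, fibrillin-1 and collagen transcripts. The mature sequences from RefSeq (GRCm38.p6) are shown with the seed in capitals, so that the matches in the family can be followed.
mmu-miR-29a-3p: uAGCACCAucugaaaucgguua
mmu-miR-29b-3p: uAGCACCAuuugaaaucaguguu
mmu-miR-29c-3p: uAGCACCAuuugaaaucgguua

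The longest annotated 3′ UTR of each gene was searched for TGGTGCT on the transcript strand, which is the reverse complement of the seed. Of the 10 members, 5 held at least 1 match. Of the 9 that were compared 4 (44.4%) did, against 15.3% of the 12223 compared genes with a 3′ UTR in the annotation (GENCODE M21). *Eln* had 3 matches in 1188 bases, *Fbn1* 2 in 992 bases, *Mfap5* 2 in 859 bases, *Mfap2* 1 in 404 bases and *Fbn2* 1 in 1635 bases. *Mfap4*, *Fbln1*, *Fbln2*, *Fbln5* and *Efemp2* had none. The matches outside *Fbn2* are shown with the 14 bases before them and the base after, the match in capitals, and all stretches are printed 5′ to 3′ on the transcript strand. In order, they lie at chr5:134703736-134703757, chr5:134703489-134703510 and chr5:134703476-134703497 for *Eln*, at chr2:125301173-125301194 and chr2:125300923-125300944 for *Fbn1*, at chr6:122528561-122528582 and chr6:122528784-122528805 for *Mfap5*, and at chr4:141015632-141015653 for *Mfap2*.
Eln 1: gacctcatcaacgtTGGTGCTa
Eln 2: tctccaagggaaatTGGTGCTa
Eln 3: ttggtgctacatgtTGGTGCTt
Fbn1 1: ttctgttgtctgttTGGTGCTa
Fbn1 2: gtgagggtttgtaaTGGTGCTt
Mfap5 1: actctaattttcacTGGTGCTg
Mfap5 2: atattttttttaaaTGGTGCTa
Mfap2 1: ggccctgcctgaccTGGTGCTt

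The members with matches did not share a direction. *Eln*, *Mfap2* and *Mfap5* were at 1.25, 1.52 and 1.40 times WT, and *Fbn1* was at 0.647 times. The printed stretches of Eln 2 and Eln 3 overlap. Over all compared genes, the median difference was 0.02 for the 10353 genes with no match, 0.01 for the 1587 genes with 1 match, -0.07 for the 227 with 2 and 0.01 for the 56 with 3 or more. Genes with more matches also had longer 3′ UTRs, with a median of 981 bases without a match and 4564 bases with 3 or more. A seed match is a description of the sequence and was not tested as a binding site. Mature microRNAs carry no poly(A) tail, for which the library kit selects. The precursor genes *Mir29a*, *Mir29b-1* and *Mir29b-2* were listed at 0 in both libraries, and *Mir29c* at 0 in WT and 40.7 in *Postn*-DTR. At the estimated depth, 1 fragment over an effective length of 1 base would give an FPKM of 41.6 in *Postn*-DTR, and the *Mir29c* hairpin has 88 bases, so this value is not read as a level.

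To place the family in its pathway, 12 lists of other elastic fibre and matrix genes were examined. They held 81 symbols, of which 71 passed the expression minimum. Of these 7 (9.86%) were at least 2-fold lower and 8 (11.3%) at least 2-fold higher, beside 3.12% and 3.88% of all genes, and their median difference was 0.13. The lists were chosen with earlier results of these data known, so the excess over all genes cannot be read as a property of the pathway. The genes counted lower were *Ltbp2*, *Pcsk6*, *Elane*, *Col5a3*, *Fmod*, *Ogn* and *Aspn*, and those counted higher were *Lox*, *Mmp12*, *Ctss*, *Ctsl*, *Prtn3*, *Slpi*, *Timp1* and *Ctgf*. Over all genes, 55.4% of those past 2-fold were higher as deposited and 28.4% after rescaling to equal totals.

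Among the closest relatives of the members, none of the 7 other fibulins, EMILINs and multimerins reached 2-fold on the log2(FPKM + 1) scale, and their median difference was -0.30. By the plain FPKM ratio, *Fbln7* (1.87 and 0.797) and *Hmcn1* (2.01 and 0.898) were 2.35-fold and 2.24-fold lower, at low FPKM. *Efemp1*, which encodes fibulin-3, was at 136 and 87.0, and *Emilin2*, which encodes an elastic fibre glycoprotein, was at 87.1 and 171. Of the 7 latent TGF-beta binding proteins (LTBPs) and TGF-beta ligands 1 was lower. *Ltbp2*, whose product binds fibrillin-1 and fibulin-5, fell from 12.4 to 5.63, a difference of -1.01, while *Ltbp4*, which acts in elastic fibre assembly, was at 141 and 114 and *Ltbp3* at 74.4 and 56.9.

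The enzymes that crosslink elastin did not share a direction. *Lox*, which encodes lysyl oxidase, rose from 20.7 in WT to 53.9 in *Postn*-DTR, or 2.60-fold, with a difference of 1.34, and it was the 1 of 6 genes in its list past 2-fold. *Loxl1*, the lysyl oxidase-like enzyme tied to elastin maintenance, was at 79.0 and 90.5. The other lysyl oxidase-like genes were lower in *Postn*-DTR but under 2-fold, with differences of -0.42 for *Loxl2*, -0.22 for *Loxl3* and -0.15 for *Loxl4*. *Fkbp10*, a chaperone of tropoelastin and collagen, was at 33.8 and 43.9. The ratio of *Lox* to *Eln* was 0.194 in WT and 0.403 in *Postn*-DTR, and that of *Loxl1* to *Eln* was 0.739 and 0.676. Thus *Lox* was higher beside its substrate *Eln* within the library, and *Loxl1* was not.

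Of the 5 compared ADAMTS and ADAMTSL genes, whose products act on or bind microfibrils, 0 reached 2-fold on the log2(FPKM + 1) scale. By the plain FPKM ratio, *Adamtsl2* (1.88 and 4.05) was 2.16-fold higher. *Adamts10* was at 32.7 and 28.6, and *Adamtsl4* at 26.2 in *Postn*-DTR, or 1.87 times its WT level. Among the 3 proconvertases, of which furin cleaves profibrillin, *Furin* was at 30.6 and 42.0, and *Pcsk6* fell from 16.5 to 4.59, or 3.60-fold. The 3 genes of the elastin receptor complex, which are also lysosomal enzymes, had differences above 0 but under 2-fold, with *Ctsa* at 89.3 and 175 and *Glb1* at 39.7 and 63.2. Of the 5 compared integrin genes that bind RGD motifs 0 reached 2-fold, with *Itgb1* at 142 and 178 and *Itgb5* at 36.7 and 28.3.

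The enzymes that can degrade elastin and their inhibitors held 7 of the 15 pathway genes past 2-fold. Of the 10 elastolytic enzymes listed 4 were at least 2-fold higher and 1 lower. This list leaves out the pancreatic elastase genes *Cela1* (942 and 14.5) and *Cela2a* (1628 and 0.351), which are counted below with the acinar genes. *Mmp12*, which encodes macrophage elastase, rose from 1.98 to 9.71, or 4.91-fold. *Ctss* and *Ctsl*, which encode lysosomal cathepsins, rose from 313 to 716 and from 285 to 611, and both were under 2-fold after rescaling to equal totals. *Ctsb*, another abundant cathepsin gene, was at 406 and 684. Of the neutrophil serine proteases, *Prtn3* rose from 8.10 to 62.6 and *Elane* fell from 5.86 to 1.85, while the 5 neutrophil markers measured had 2 lower and 1 higher and a summed FPKM of 420 and 683. Of 6 inhibitors 2 were higher. *Timp1*, an inhibitor of metalloproteinases, rose from 10.5 to 179, or 17.1-fold, and *Slpi*, an inhibitor of neutrophil elastase, from 64.9 to 627, or 9.67-fold. *Cst3*, the most abundant inhibitor, was at 1103 and 1460.2. The macrophage markers were higher in the same library, with 3 of 6 past 2-fold and a summed FPKM of 3546 and 5823. The part of these cells in these values was not tested.

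**Figure D4:**
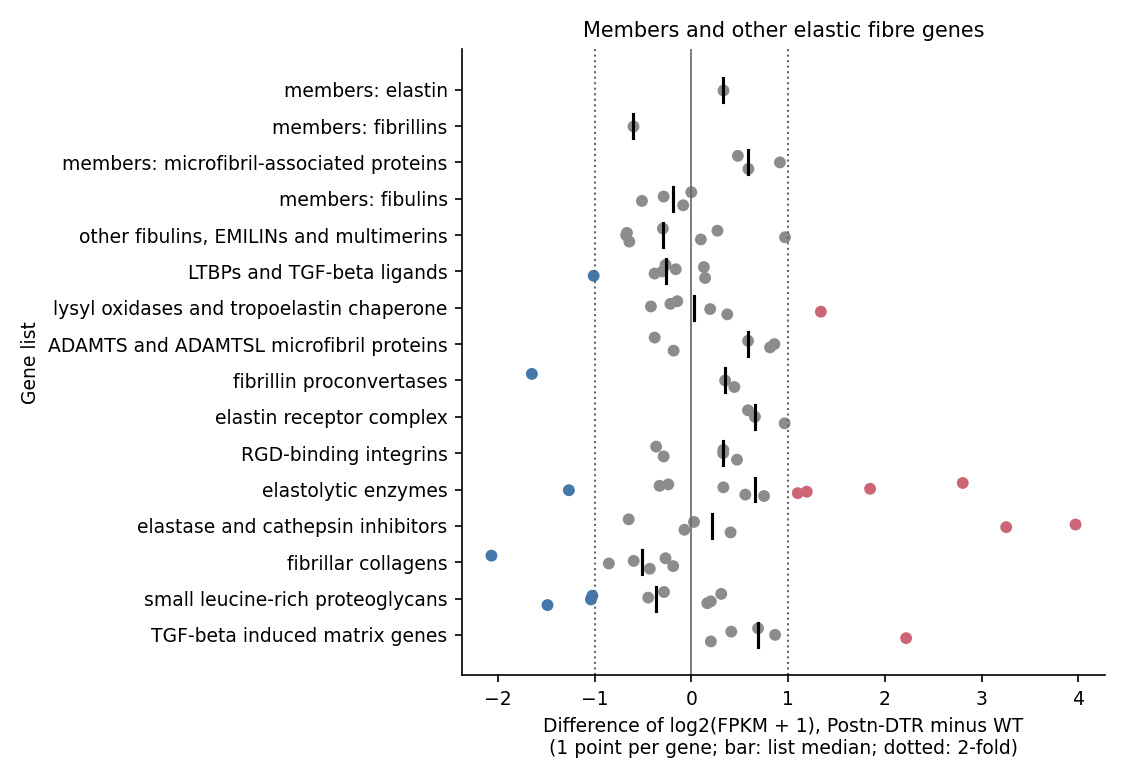
Difference of log2(FPKM + 1), Postn-DTR minus WT (horizontal), for each compared gene of the 4 member classes and 12 other lists (vertical), with blue points at least 2-fold lower, red points at least 2-fold higher, grey points within 2-fold and a black bar at each list median. The member classes lie within the dotted 2-fold lines, and points beyond 3 on this scale are the inhibitors Slpi and Timp1.

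The fibrillar collagens and the small leucine-rich proteoglycans, other classes of matrix genes, were set beside the family. All 6 fibrillar collagens had differences below 0, with a median difference of -0.51, although only *Col5a3* (34.5 and 7.46) reached 2-fold. *Col3a1* was at 1264 and 699, and *Col1a2* at 407 and 357. Of the 8 proteoglycans 3 were lower, with a median of -0.37. *Aspn* fell from 7.82 to 2.14, *Fmod* from 66.4 to 31.8 and *Ogn* from 48.3 to 23.2, while *Dcn*, the most abundant, was at 1875 and 2152 and *Bgn* at 466 and 522. *Fbn1* and *Fbln1* thus had values close to the collagen median, and the *Mfap* genes lay on the other side of 0. Whether these groups differ was not tested. Of the 5 genes known to be induced by TGF-beta, which microfibrils help to store, all had differences above 0 as deposited and 1 reached 2-fold. The smallest difference was 0.20 for *Acta2*, which is less in size than the shift of -0.29 of all genes at equal totals. *Ctgf* rose from 18.2 to 88.2, while *Fn1*, which encodes fibronectin, was at 459 and 837 and *Tgfbi* at 95.2 and 127. *Tnc* (1.13 and 2.44) was 2.15-fold higher by the plain FPKM ratio but under 2-fold on the log2(FPKM + 1) scale.

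Markers of the cells that could supply these transcripts had the following values. Of 10 fibroblast genes 4 were at least 2-fold lower, with a median of -0.52. *Dpt*, *Clec3b*, *Gsn* and *Ccl11* were the 4, *Dpt* at 237 and 67.3, while *Pdgfra*, which marks fibroblasts broadly, was at 26.0 and 29.2. Of the fibroblast genes 6 had differences below 0 and 4 above, and *Mfap5*, which is in this list, was among the latter. The summed FPKM of the list was 2460.1 and 1082. This sum follows *Gsn* (1566 and 605), *Clec3b* (354 and 102) and *Dpt*. Of 9 smooth muscle and pericyte genes 3 were lower and 1 higher. The pericyte genes *Rgs5* (30.6 and 2.56), *Notch3* (21.3 and 3.53) and *Pdgfrb* (41.3 and 17.3) fell, *Actg2* rose from 2.97 to 12.9, and the abundant contractile genes *Tagln* (128 and 151) and *Acta2* (94.6 and 109) did not reach 2-fold. The sum of this list was 361 and 324. The summed FPKM was 507 and 549 for the 6 mesothelial genes and 244 and 234 for the 6 blood endothelial genes. It was 175 and 174 for the 5 lymphatic endothelial genes, and 6750.5 and 7984 for the 6 adipocyte genes. The adipocyte sum follows *Fabp4* (4879 and 6519), while 4 of its 6 genes had differences below 0, among them *Adipoq* (955 and 636), and the median was -0.37. *Pparg* (59.1 and 27.3) was the 1 adipocyte gene past 2-fold. The medians were 0.30 for the mesothelial, -0.06 for the blood endothelial and 0.17 for the lymphatic endothelial genes. Of the mesothelial genes 2 had differences below 0 and 4 above. *Lrrn4* (62.7 and 29.2) was at least 2-fold lower, while *Msln* (37.2 and 67.9) and *Upk1b* (39.4 and 75.3) were higher but under 2-fold. The FRC list had 2 of 6 genes lower, a median of -0.56 and sums of 284 and 196. The *Aldh1a2*+ FRC list had 1 lower and 1 higher of the 6 compared and sums of 215 and 163. The 8 pancreatic acinar genes had a summed FPKM of 8078 and 17.3, so that the WT library held pancreatic transcripts that the *Postn*-DTR library nearly lacked. The part of each of these cell types in the differences of the family was not tested.

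**Figure D5:**
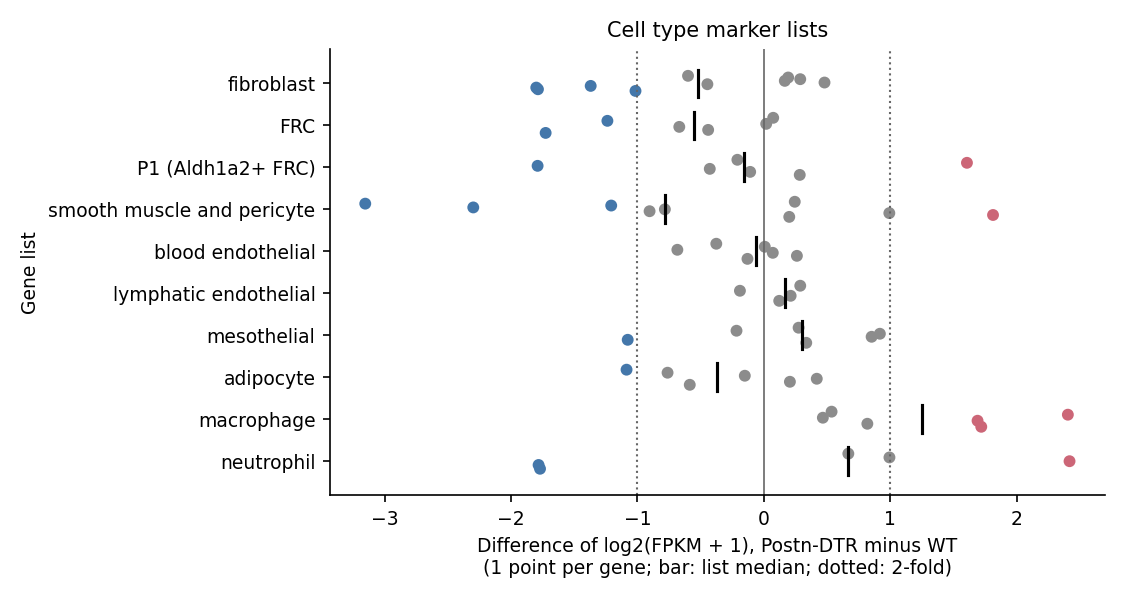
Difference of log2(FPKM + 1), Postn-DTR minus WT (horizontal), for each compared gene of 10 cell type marker lists (vertical, acinar list left out), with blue points at least 2-fold lower, red points at least 2-fold higher, grey points within 2-fold and a black bar at each list median. Fibroblast, FRC and pericyte lists have points on both sides of 0, and all 6 macrophage markers lie above 0.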

How the data were processed

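RNA-seq of whole omentum was analysed for 1 WT and 1 *Postn*-DTR library. RNA extraction (miRNeasy) and a stranded TruSeq mRNA kit are given in the labels. The authors deposited FPKM, 1 value per gene symbol. The submitters' processing notes name TopHat2 2.1.1, Bowtie2 2.2.8, SAMtools 0.1.18, Cuffdiff 2.2.1 and mm10, and the gene annotation is not given in the sources used here. Groups were taken from the genotype label. FPKM were used as deposited, with a pseudocount of 1, a minimum mean FPKM of 1 over both libraries and a 2-fold threshold, and the calculation was tested on simulated data. The FPKM sums were 542190 (WT) and 671882 (*Postn*-DTR). Low values gave the relative depth: of 723 genes under 0.1 FPKM in each library, 174 shared a ratio of 0.967, which puts *Postn*-DTR at 1.03 times the depth of WT. Genes with a single annotated transcript gave about 23300000 and 24050000 fragments, with 74.1% and 72.5% of low values within 0.05 of a whole number. Fragments per gene were then estimated from the longest coding transcript and are approximate. Positions, transcripts and 3′ UTRs came from GENCODE M21 on GRCm38, the same build as mm10. Python 3.11.15, pandas 2.3.3, numpy 2.4.6, scipy 1.17.1 and matplotlib 3.10.9 were used. Members and lists were chosen with earlier results of these data known. Named were all members, *Postn*, list genes past 2-fold and the 2 most abundant of each list, and up to 3 genes and the sum of each marker list. *Pdgfra*, *Ccl11*, *Rgs5*, *Notch3*, *Actg2* and the miR-29 precursors were named after their values were seen. The same holds for *Fbln7*, *Hmcn1*, *Adamtsl2*, *Tnc*, *Loxl2*, *Loxl3*, *Loxl4*, *Cela1* and *Cela2a*. It also holds for *Ptx3*, *Ace*, *Adm*, *Phex*, *Matn2*, *Vcam1*, *Lrrn4*, *Msln*, *Upk1b* and *Pparg*. The symbols Adamtsl6, Ccn2, Pi3 and the neutrophil marker Ly6g had no row, and the first 2 are other names of *Thsd4* and *Ctgf*, which had. In addition, 1 listed gene is not reported here and was left out of the list counts.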

Additional observations from a re-analysis of the deposited data

How the results depend on the processing

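With 1 library per genotype, no result has a replicate check and variation between mice was not measured. No paired analysis was possible because each genotype had 1 library. Rescaling to equal totals without the 8 acinar marker genes moved the median of the 9 members from -0.0019 to -0.32. The median of all genes shifted by -0.29, and *Eln* turned from 0.32 to -0.0070. No member reached 2-fold under any of the 7 alternatives that kept this threshold. With a 1.5-fold threshold 1 member was lower and 2 were higher, and among the other pathway genes 13 were lower and 17 higher, in place of 7 and 8. The 7 lower pathway genes became 2 with a pseudocount of 5, 4 with a minimum mean FPKM of 10 and 2 with a 3-fold threshold, which left 5 of the 8 higher genes, as stricter settings lower a count by construction. The other counts of members and pathway genes stayed within 1.5 times. Over all genes, the 410 lower and 509 higher became 780 and 309 at equal totals, 168 and 287 with a pseudocount of 5, 153 and 199 at 3-fold and 1160 and 1294 at 1.5-fold. There were 643 lower with a pseudocount of 0.1 and 173 lower and 303 higher with a minimum mean FPKM of 10.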
